A study of Mus musculus with 6 samples.

Results

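The stress keratins described here were the mouse genes Krt6a, Krt6b, Krt16 and Krt17, found by gene name among the 47729 genes of the deposited table, where each of the 4 names matched a single gene. RNA was sequenced from 6 libraries of tissue labelled epidermis from wild-type C57BL/6 mice, 3 labelled AKBA gel and 3 labelled Control gel. AKBA commonly stands for an acetylated keto-boswellic acid, which is a triterpenoid found in Boswellia resin. IMQ stands in the descriptions of the Control gel libraries and is not explained in the labels, and the sources used here do not say whether either group received anything beside its gel. Libraries held 19066045 to 22760432 counts. The labels do not say whether each library is a separate animal; every p-value therefore reflects the spread among these libraries alone, and that spread may be technical.

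Keratins are the intermediate filament proteins of epithelia, and a filament needs a type II keratin joined to a type I keratin. Krt6a and Krt6b encode type II keratins, and Krt16 and Krt17 encode type I keratins. Resting epidermis between hair follicles relies on Krt5 with Krt14 in its basal layer and Krt1 with Krt10 above it, while the stress keratins are known from the outer root sheath and companion layer of the hair follicle, the nail bed and the palm and sole. Wounding, inflammation and hyperproliferation are known to induce them in the keratinocytes between follicles, and they are widely used as markers of such activated epidermis.

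The type II members are near-identical neighbours, and this bears on how firmly reads can be given to either. On the minus strand of chromosome 15 in GRCm38, GENCODE places Krt6b at 101676023 to 101680287 and Krt6a at 101689910 to 101694307, with Krt5 as the next keratin gene. Their coding sequences were 97.8% identical, with 37 of 1659 aligned bases different and an identical run of 280 bases. Of the 100-base words of the Krt6a transcript, 29.5% also occurred in the Krt6b transcript and 2.3% in the Krt5 transcript. Of those of the Krt6b transcript, 30.1% occurred in Krt6a and none in Krt5. The 60 coding bases with the most differences, in a stretch without gaps inside a single exon, are printed here. Untranslated parts of the transcripts were not searched. These bases lie at coding positions 817 to 876, read 5′ to 3′ on the minus strand. Their places are chr15:101692484-101692543 for Krt6a and chr15:101678303-101678362 for Krt6b, and capitals mark the 10 bases that differ.
Krt6a: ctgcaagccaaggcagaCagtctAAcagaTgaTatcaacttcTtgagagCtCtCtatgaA
Krt6b: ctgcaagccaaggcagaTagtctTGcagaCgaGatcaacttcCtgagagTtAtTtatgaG

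The type I members also lie together, on the minus strand of chromosome 11, with Krt16 at 100246091 to 100248902 and Krt17 at 100256217 to 100261029, between Krt14 and Krt42. Krt16 and Krt17 were 77.6% identical over their coding sequences, and no 100-base word of Krt16 occurred in Krt17. Krt16 was closer to Krt14, at 86.5% identity, and shared 3.14% of its 100-base words with it. Values for Krt6a and Krt6b taken singly are therefore uncertain, because the authors' counting could split shared reads between them. In GENCODE, the antisense gene Gm49428, not analysed here, overlaps Krt6a, and the sources used here do not say whether strand was used in counting. The microRNA genes Gm44342, within Krt6a, and Gm44383, within Krt6b, had 0 counts in every library.

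Krt6a, Krt6b and Krt16 were lower in every AKBA gel library than in any Control gel library, and Krt17 was not. The mean level with AKBA gel was 13.2% of the Control gel mean for Krt6a, 16.1% for Krt6b, 22.6% for Krt16 and 65.5% for Krt17. None of the 4 passed edgeR's quasi-likelihood test after Benjamini-Hochberg adjustment over the 17023 genes tested, and neither did any other gene (0 genes, 0.0%). Without adjustment, 3 of the 4 were lower at p under 0.05, all but Krt17, beside 1193 lower genes (7.01%) and 1098 higher genes (6.45%) in all. DESeq2 called 201 genes lower (1.28%) and 85 higher, with Krt6a alone of the 4 among them. Groups did not overlap for 9.1% of all genes tested in the direction of lower with AKBA gel and for 9.28% in the other direction.

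Krt6a, a type II keratin induced at wound edges, was at 1019, 193 and 1183 CPM in AKBA gel replicates 1 to 3, against 1850, 6474 and 9843 CPM in Control gel replicates 1 to 3. CPM are counts scaled to a common library size, here after scaling between libraries by the trimmed mean of M values (TMM). The groups did not overlap, AKBA gel replicate 2 was far below the others, and Control gel replicate 1 was nearest to the AKBA gel libraries, at 1.56 times the highest of them. The means were 798 ± 531 CPM in AKBA gel libraries and 6056 ± 4013 CPM in Control gel libraries (SD, n = 3 each). The log2 fold change was -2.92 ± 0.80 (SE), with an adjusted p of 0.331 from edgeR. Its unadjusted p was 0.00708. In the order of all genes by level within a library, Krt6a stood at places 76, 811 and 47 with AKBA gel, against places 32, 8 and 4 with Control gel.

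Krt6b, its near-copy, was at 1294, 92.5 and 1254 CPM with AKBA gel, against 1954, 5277 and 9218 CPM with Control gel. The same 2 libraries marked the extremes, AKBA gel replicate 2 and Control gel replicate 3, and the groups did not overlap. Krt6b varied most within AKBA gel of the 4 genes, with a 14.0-fold range between libraries, against 4.72-fold within Control gel. The means were 880 ± 682 CPM in AKBA gel libraries and 5483 ± 3636 CPM in Control gel libraries (SD, n = 3 each). The log2 fold change was -2.64 ± 0.94 (SE), with an adjusted p of 0.339 from edgeR. Its unadjusted p was 0.0246.

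Krt16, the type I keratin usually found together with the Krt6 proteins, was at 1855, 497 and 1435 CPM with AKBA gel, against 2407, 5107 and 9277 CPM with Control gel. The groups did not overlap, but the margin was the narrowest of the 3 such genes, with Control gel replicate 1 at 1.30 times AKBA gel replicate 1. The means were 1262 ± 696 CPM in AKBA gel libraries and 5597 ± 3461 CPM in Control gel libraries (SD, n = 3 each). The log2 fold change was -2.15 ± 0.61 (SE), with an adjusted p of 0.331 from edgeR.

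Krt17, a type I keratin of the hair follicle and activated epidermis, was at 1139, 744 and 1125 CPM with AKBA gel, against 804, 1677 and 2115 CPM with Control gel. Here the groups overlapped, since Control gel replicate 1 lay below AKBA gel replicates 1 and 3. The means were 1003 ± 224 CPM in AKBA gel libraries and 1532 ± 668 CPM in Control gel libraries (SD, n = 3 each), and the log2 fold change was -0.61 ± 0.36 (SE), with an adjusted p of 0.496 from edgeR. Krt17 was the least variable of the 4 in either group, with a 1.53-fold range within AKBA gel and a 2.63-fold range within Control gel.

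**Figure D1:**
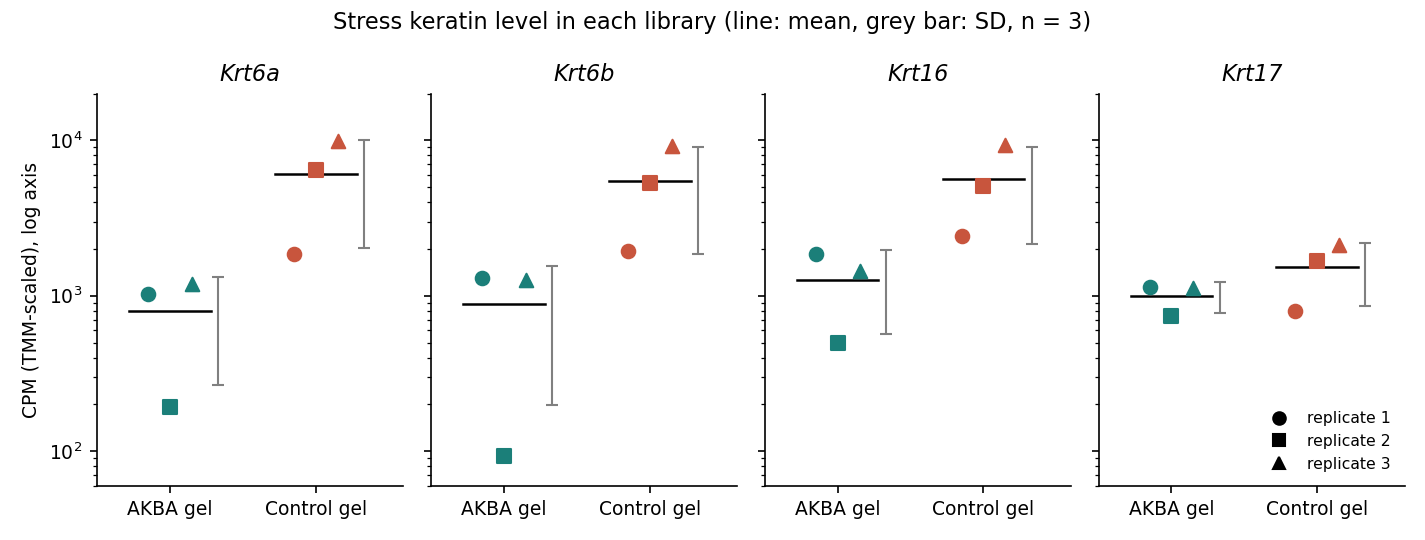
Level of each stress keratin in each library, in TMM-scaled CPM on a log axis; points are libraries, with AKBA gel left of Control gel, and the bars give the group mean and SD (n = 3 each). For Krt6a, Krt6b and Krt16 every AKBA gel point lies below every Control gel point, and for Krt17 Control gel replicate 1, at 804 CPM, lies among the AKBA gel libraries.

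The authors' deposited table marked 273 genes as significant, 158 of them lower with AKBA gel (0.553% of the 28595 genes with a count). It marked Krt6a, Krt6b and Krt16 and did not mark Krt17. In the authors' deposited table the log2 fold changes were -2.83 for Krt6a, -2.54 for Krt6b, -2.08 for Krt16 and -0.56 for Krt17. The adjusted p-values in the authors' deposited table were 0.000469, 0.0165, 0.0016 and 0.457 in the same order of genes. The sources used here do not give the method behind them. The fold changes were close to those of the edgeR fit above, and the calls differed for 3 of the 4 genes.

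Leaving out single libraries changed the size of the differences and not their direction. Over the 6 such fits, the log2 fold change lay between -3.35 and -2.38 for Krt6a, between -3.04 and -2.04 for Krt6b, between -2.54 and -1.57 for Krt16 and between -0.91 and -0.31 for Krt17. The values nearest to 0 came without Control gel replicate 3. AKBA gel replicate 2 was the lowest and Control gel replicate 3 the highest library for each of the 4 genes. Without both of these libraries, the log2 fold changes were -1.92 for Krt6a, -1.50 for Krt6b, -1.19 for Krt16 and -0.13 for Krt17. Krt6a and Krt6b counted together, which removes only the question of reads shared between them, gave -2.78 with an adjusted p of 0.334 from edgeR.

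**Figure D2:**
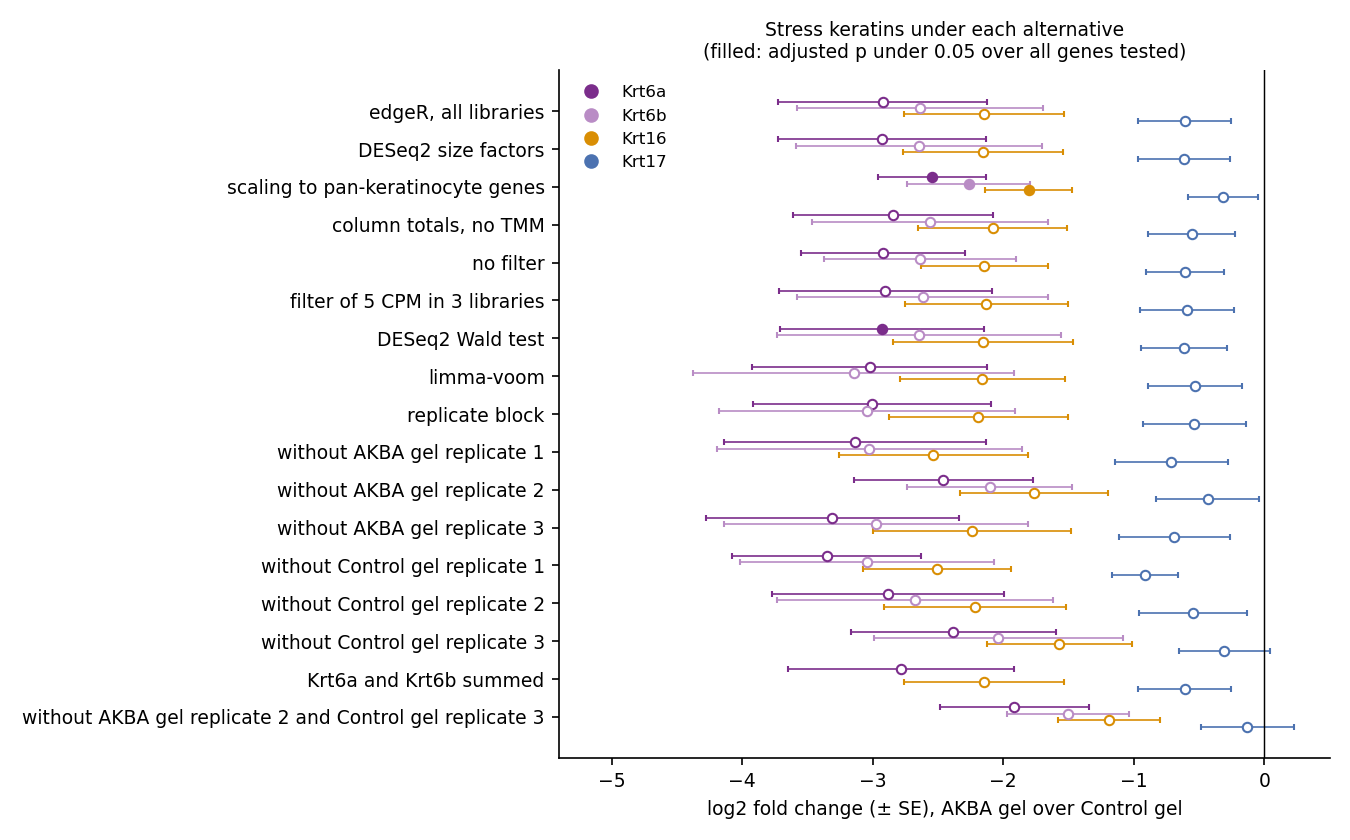
Log2 fold change (± SE), AKBA gel over Control gel, of each stress keratin under each processing alternative, with filled points where the adjusted p over all genes tested was under 0.05; where Krt6a and Krt6b were summed, the sum is drawn in the colour of Krt6a. Every point lies below 0, and the filled points are those of the scaling to pan-keratinocyte genes (Krt6a, Krt6b and Krt16) and of DESeq2 (Krt6a).

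Per transcript length, the order of the 4 genes was not the same in the 2 groups. In deposited FPKM, counts scaled by library total and transcript length, Krt16 was at 1158, 313 and 979 with AKBA gel, against 1571, 3364 and 5436 with Control gel. Krt17 was at 717, 473 and 774 FPKM with AKBA gel, against 529, 1115 and 1251 FPKM with Control gel. Krt6a was at 442, 84.3 and 560 FPKM with AKBA gel, against 837, 2958 and 4001 FPKM with Control gel. Krt17 was thus above Krt6a in all 3 AKBA gel libraries and below it in all 3 Control gel libraries, while Krt16 led in every library but AKBA gel replicate 2, where Krt17 did.

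The ratio of Krt16 to Krt17 in FPKM was 1.61, 0.661 and 1.26 with AKBA gel, against 2.97, 3.02 and 4.35 with Control gel. The groups did not overlap, and the difference in the log2 ratio of AKBA gel minus Control gel was -1.62. The corresponding differences were -2.47 for Krt6a over Krt17 and -2.58 for Krt6b over Krt17, again with no overlap. Each of these 3 had an exact 2-sided permutation p of 0.1, the smallest that 3 libraries against 3 can give, and 0.2 after adjustment over the 6 pairs compared. The other 3 ratios overlapped between the groups: the difference was 0.11 for Krt6a over Krt6b, -0.85 for Krt6a over Krt16 and -0.96 for Krt6b over Krt16.

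The type II members together had 0.538, 0.159 and 0.662 times the FPKM of the type I members with AKBA gel, against 0.826, 1.21 and 1.17 times with Control gel. Krt6a made up 44.1, 67.6 and 48.6% of the counts of Krt6a and Krt6b with AKBA gel, against 48.6, 55.1 and 51.6% with Control gel. The share was highest in AKBA gel replicate 2, where the 95% Wilson interval was 66.3 to 68.8%. Such intervals cover counting error only.

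All 4 genes together took 0.519, 0.151 and 0.533% of all counts with AKBA gel, against 0.716, 1.91 and 2.79% with Control gel. The 95% Wilson interval was 0.149 to 0.152% in the lowest library, AKBA gel replicate 2, and 2.79 to 2.80% in the highest, Control gel replicate 3, so the counting error was small beside the spread between libraries. Of all keratin counts they made up 7.74, 2.29 and 9.79% with AKBA gel, against 12.7, 29.2 and 34.6% with Control gel. All keratins together took 6.70, 6.57 and 5.45% of counts with AKBA gel, against 5.65, 6.55 and 8.08% with Control gel, so the groups overlapped in total keratin and not in the stress keratin share of it. In these bulk samples fewer cells of a type and less RNA per cell cannot be told apart.

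**Figure D3:**
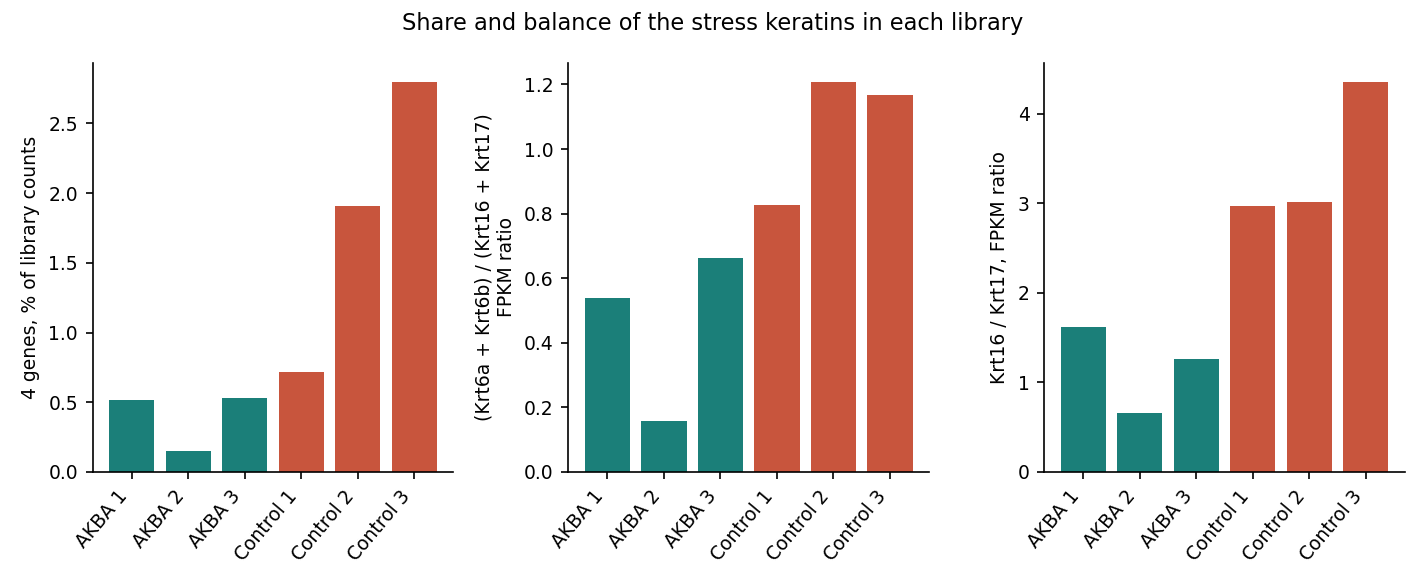
Bars for each library, AKBA gel left of Control gel, give the share of all counts that fell on the 4 stress keratins in percent, the FPKM ratio of the type II to the type I members, and the FPKM ratio of Krt16 to Krt17. All 3 measures are lower in each AKBA gel library than in any Control gel library, with AKBA gel replicate 2 lowest in each, at 0.151%, 0.159 and 0.661.

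The levels of the 4 genes were correlated across the libraries. Over the 6 libraries, Pearson's r of log2 CPM was 0.982 for Krt6a with Krt6b, 0.989 for Krt6a with Krt16 and 0.974 for Krt6b with Krt16. Krt17 stood further off, with r of 0.869 with Krt6a, 0.830 with Krt6b and 0.874 with Krt16. These values describe 6 libraries that fall into 2 groups and share their scaling, and Krt6a and Krt6b also share reads. Ordered by r with Krt6a among the 12261 genes with a mean of at least 5 CPM, and with Krt6a itself at place 1, Krt16 was at place 16, Krt6b at place 37, Krt14 at place 105 and Krt17 at place 812.

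The genes whose level across the 6 libraries was most like the mean profile of the 4 were B3gnt3, Gm5416, Hdlbp, Flii, Trap1, Gsta4, Foxp1, Pitpnm1, Fdps and Atp5b, with r between 0.988 and 0.996, and 163 genes reached r of 0.95. Most of these 10 spanned a small range, such as Hdlbp at 485, 436 and 494 CPM with AKBA gel, against 500, 549 and 585 CPM with Control gel. Gsta4, a glutathione transferase, spanned a wide one, at 16.4, 4.09 and 14.3 CPM with AKBA gel, against 20.3, 90.4 and 177 CPM with Control gel. The lowest r, from -0.991 to -0.988, were those of Ppp1r13b, Abhd8, Hsdl1, Slc45a4 and Hs3st6.

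By single gene, the profile most like that of Krt6a was that of Slc28a2, followed by Mmp9, a gelatinase, and Akap11. For Krt6b it was that of Lce3b, followed by Lce3a and Thbs3, the first pair being late cornified envelope genes known in human skin from barrier injury. Lce3b was at 10.4, 0.266 and 13.5 CPM with AKBA gel, against 30.7, 64.5 and 155 CPM with Control gel. For Krt16 it was that of Defb3, a beta-defensin, followed by Flii and Pla2g7. Defb3 was at 2.01, 0.106 and 1.07 CPM with AKBA gel, against 3.09, 10.8 and 21.3 CPM with Control gel. For Krt17 it was that of Parp16, followed by B3gnt8 and Prkab1. Lce3b and Defb3 shared with the stress keratins a lowest value in AKBA gel replicate 2 and a highest value in Control gel replicate 3. Both genes were named for their high r over these same libraries, so the shared extremes are not a separate result. The Defb3 value in AKBA gel replicate 2, 0.106 CPM, lay below 0.157 CPM, the level of 3 counts in that library.

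Of the other keratin genes on chromosomes 11 and 15, 38 passed the low-count filter. Groups did not overlap for 2 that were lower and 6 that were higher with AKBA gel, which is 5.26% and 15.8% of them against 9.1% and 9.28% of all genes tested. Their median log2 fold change was 0.021, against 0.0037 over all genes tested, and single libraries decided it: it was -0.55 without AKBA gel replicate 3 and 1.42 without Control gel replicate 2. No keratin passed edgeR's adjusted threshold. The lower ones were Krt14 and Krt90, and the higher ones Krt7, Krt15, Krt23, Krt77, Krt79 and Krt222. These 8 were named after their values were seen.

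Krt14, the basal partner of Krt5 and a neighbour of Krt16 on chromosome 11, was at 8405, 4333 and 7587 CPM with AKBA gel, against 8461, 14360 and 24385 CPM with Control gel. Its log2 fold change was -1.22 ± 0.45 (SE), with an adjusted p of 0.343 from edgeR, and Control gel replicate 1 was barely above AKBA gel replicate 1. Krt15, another basal and follicular type I keratin, averaged 736 ± 171 CPM in AKBA gel libraries and 306 ± 170 CPM in Control gel libraries (SD, n = 3 each). Krt77, a type II keratin of sweat ducts and suprabasal cells, averaged 103 ± 64.6 CPM in AKBA gel libraries and 19.2 ± 15.1 CPM in Control gel libraries (SD, n = 3 each).

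Among the 18 tested keratins listed as epidermal beside the 4, the median log2 fold change was 0.39. Of them, 1 was lower and 5 higher without overlap (5.56% and 27.8%, against 9.1% and 9.28% of all genes tested). Krt7, with the low counts given above, was among the 5. With 1 library left out the median lay between 0.25 and 0.61, lowest without AKBA gel replicate 2 and highest without AKBA gel replicate 3. Under a filter of 5 CPM in 3 libraries, 11 of the keratins listed as epidermal were left, with a median of 0.51. Krt1 and Krt10, the suprabasal pair, overlapped between the groups, with log2 fold changes of 0.50 ± 0.34 and 0.95 ± 0.38 (SE). Against Krt10, Krt16 had an FPKM ratio of 0.119, 0.0274 and 0.149 with AKBA gel, against 0.230, 0.850 and 1.56 with Control gel. Krt6a and Krt6b made up 31.4, 6.04 and 35.3% of the FPKM of Krt5, Krt6a and Krt6b together with AKBA gel, against 47.5, 69.5 and 73.0% with Control gel. Neither measure overlapped between the groups.

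The 18 tested hair follicle keratins were led by Krt71, Krt25, Krt27 and Krt73. Beside 9.1% lower and 9.28% higher without overlap among all genes tested, none of these keratins was without overlap. Their median log2 fold change was -0.14, but it was -1.32 without AKBA gel replicate 3 and 2.58 without Control gel replicate 2, so no direction can be read from it. Their summed share of counts followed single libraries and not the groups, at 0.0040, 0.077 and 0.181% with AKBA gel, against 0.023, 0.235 and 0.010% with Control gel. Krt42, a type I neighbour of Krt17, had 6, 1 and 5 counts with AKBA gel, against 3, 7 and 13 counts with Control gel, too few to pass the low-count filter.

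**Figure D4:**
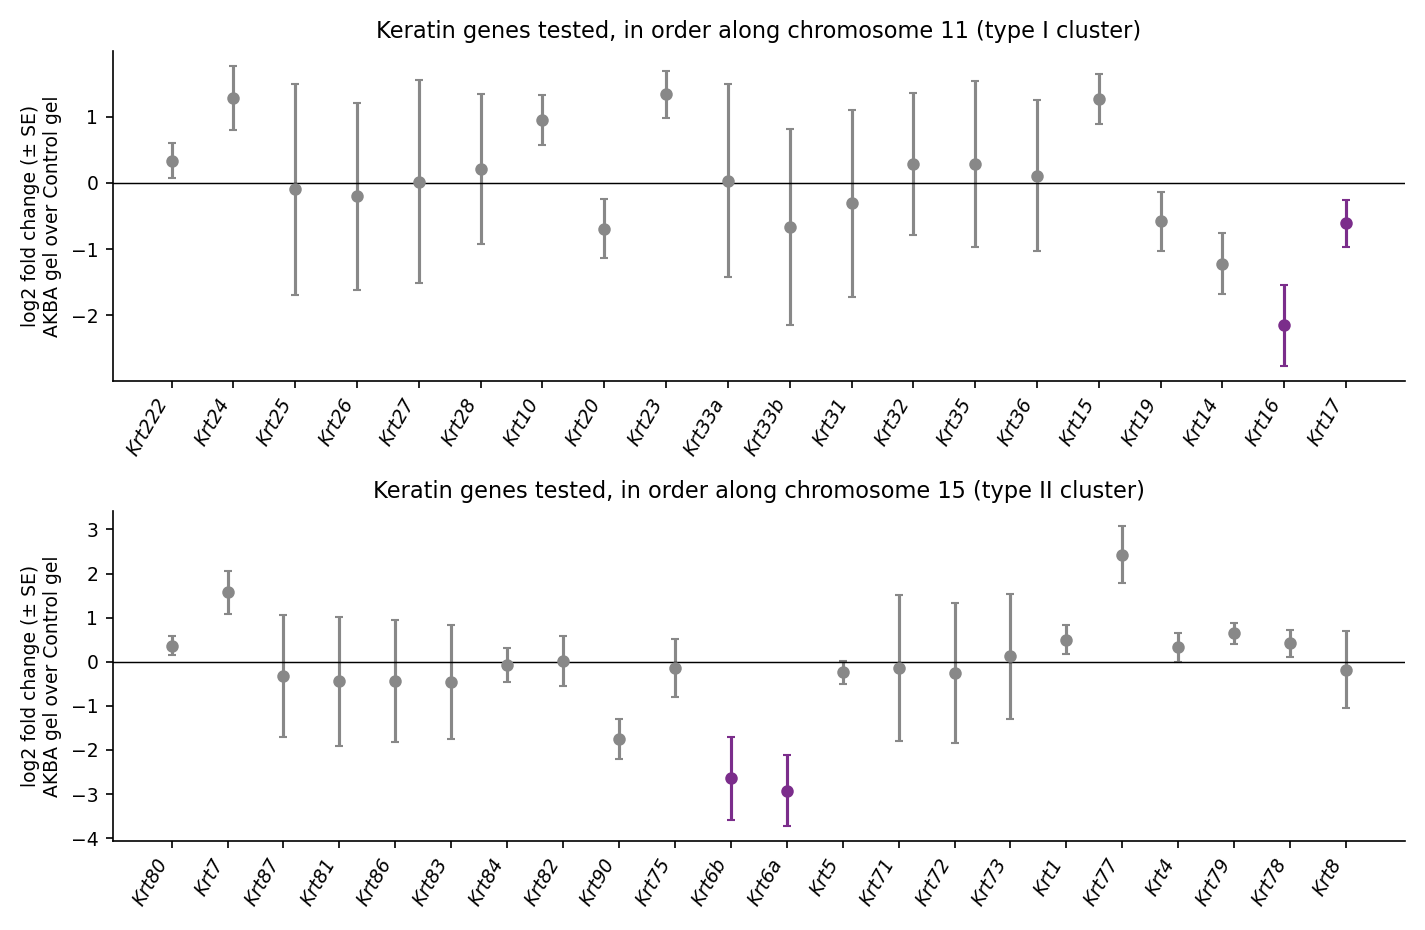
Log2 fold change (± SE), AKBA gel over Control gel, for the tested keratin genes in their order along chromosomes 11 and 15, with the 4 stress keratins marked. Krt6a at -2.92, Krt6b at -2.64 and Krt16 at -2.15 lie lowest, and Krt17 lies at -0.61.

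Several factors known to induce the stress keratins were also lower in every AKBA gel library than in any Control gel library. Of 53 listed inducers and regulators 48 passed the low-count filter, and none passed edgeR's adjusted threshold. Groups did not overlap for 12 that were lower, which is 25% of the list against the 9.1% of all genes, and for 4 that were higher, which is 8.33% against 9.28%. The median log2 fold change was -0.14 (-0.23 to -0.11 with 1 library left out, lowest without Control gel replicate 1), and it was 0.068 when libraries were scaled to pan-keratinocyte genes, which moved the median of all genes to 0.19. The most abundant members were Klf4, Stat3, Trp63 and Fosl2, transcription factors of keratinocytes, and each of the 4 overlapped between the groups.

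The 12 lower and 4 higher genes were named after their values were seen. Hbegf, a membrane-anchored ligand of the epidermal growth factor receptor, was at 12.2, 7.76 and 12.8 CPM with AKBA gel, against 21.6, 40.8 and 109 CPM with Control gel, a log2 fold change of -2.39 ± 0.56 (SE). Tgfa, another ligand, was at -0.41 and the receptor Egfr at -0.26 on the same scale. The other listed ligands overlapped between the groups, with Areg at -1.32, Ereg at -0.50 and Btc at 1.16. Fos, a subunit of the transcription factor AP-1, was at 10.5, 11.9 and 10.4 CPM with AKBA gel, against 19.3, 39.4 and 54.4 CPM with Control gel, a log2 fold change of -1.79 ± 0.34 (SE). Fosl1, an AP-1 subunit of activated keratinocytes, had a log2 fold change of -2.27 ± 0.51 (SE). Fosb was at -2.29 and Junb at -0.91. The other listed AP-1 subunits overlapped between the groups, with Jun at -0.11, Jund at 0.11 and Fosl2 at -0.030.

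Among cytokines and their receptors, Il1b, which encodes the inflammatory interleukin 1 beta, was at 1.77, 1.44 and 2.26 CPM with AKBA gel, against 2.52, 14.1 and 4.17 CPM with Control gel. Its highest value was in Control gel replicate 2, which was not the library highest in the stress keratins. Osmr, the oncostatin M receptor, had a log2 fold change of -0.82, and Ifngr1, a subunit of the interferon gamma receptor, one of -0.24. Ppard, a nuclear receptor, was at -0.72, and Nfe2l2, the oxidative stress factor that can drive Krt6 and Krt16, at -0.40. The 4 higher genes were Il20ra at 1.02 and Il20rb at 0.72, the subunits of a receptor for interleukin 20 family cytokines, together with Rarg at 0.35 and Cebpb at 0.28.

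The ligands most often linked to stress keratins in psoriasis had few counts. Il17a had 9, 2 and 4 counts with AKBA gel, against 13, 6 and 3 counts with Control gel. Il17f had 8, 1 and 10 counts with AKBA gel, against 22, 19 and 10 counts with Control gel. Il22 and Ifng had at most 3 counts in any library, and Il6 had 1, 1 and 3 counts with AKBA gel, against 2, 45 and 11 counts with Control gel. None of these 5 passed the low-count filter, so they have no value in the fit used here.

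**Figure D5:**
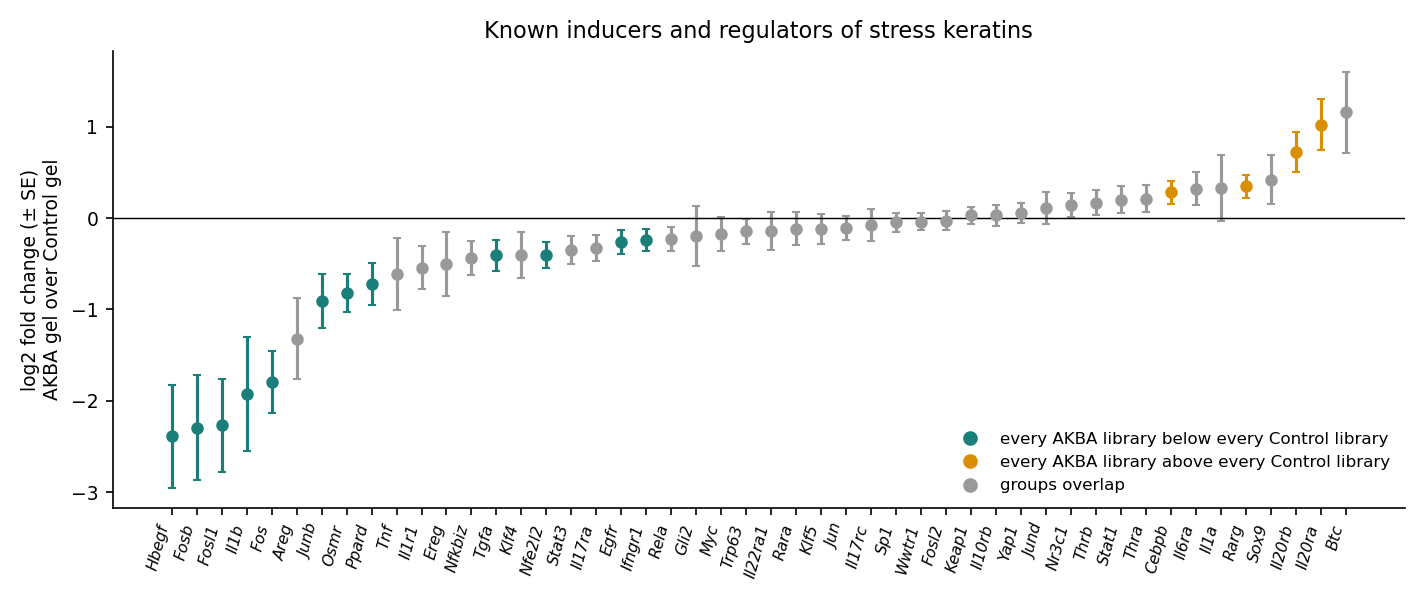
Log2 fold change (± SE), AKBA gel over Control gel, of the 48 tested inducers and regulators of stress keratins, in order of size, coloured by whether the groups overlapped. The 12 genes with every AKBA gel library below every Control gel library are led by Hbegf at -2.39, and the 4 with every AKBA gel library above are Cebpb, Rarg, Il20rb and Il20ra.

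Immediate early genes, which respond within minutes to stimulation or tissue handling, overlap in part with this list. Of the 15 tested, 5 were lower and 1 higher without overlap, which is 33.3% and 6.67% against 9.1% and 9.28% of all genes tested. The median log2 fold change was -0.51, but it was -0.23 without Control gel replicate 3 and -0.24 under scaling to pan-keratinocyte genes. Their summed share of counts was 0.0895 to 0.0900% with AKBA gel, against 0.0943 to 0.127% with Control gel. The most abundant were Hspa1b, Junb, Jun and Egr3. Their part in the result was not tested.

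The 20 tested proliferation genes, led by Mki67, Top2a, Pcna and Mcm6, all overlapped between the groups. Among all genes tested, 9.1% were lower and 9.28% higher without overlap. The proliferation genes had a median log2 fold change of -0.15 and values from -0.45 to -0.0047. The median was 0.057 under scaling to pan-keratinocyte genes. It was -0.017 without AKBA gel replicate 1, -0.021 without Control gel replicate 2 and -0.39 without AKBA gel replicate 3. Of 21 tested genes for linker and desmosome proteins, which anchor keratin filaments, 1 was lower without overlap (4.76%, against 9.1% of all genes tested). The median was -0.16, or 0.064 under that scaling, -0.049 without Control gel replicate 3 and -0.25 without Control gel replicate 1. The gene lower without overlap was Dsg1b, a desmosomal cadherin, at -0.78, named after its values were seen. The most abundant were Dsp, Perp, Pkp1 and Jup. These are also among the pan-keratinocyte genes scaled to, so the median under that scaling is not independent of them. The 8 tested interaction partners known for Krt16 and Krt17 from mouse or cell studies were led by Sfn, Rpsa, Hnrnpk and Mif. All 8 overlapped, beside 9.1% lower and 9.28% higher without overlap among all genes tested. The median of these partners was -0.069, or 0.13 under that scaling, 0.012 without Control gel replicate 3 and -0.020 without AKBA gel replicate 2. Sfn, an adaptor of the 14-3-3 family and a partner of Krt17, had a log2 fold change of -1.06 and is also among the genes scaled to.

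The libraries also held RNA of cells other than activated keratinocytes. The summed share of basal keratinocyte markers, which include Krt14, was 1.10 to 1.52% with AKBA gel, against 1.48 to 3.05% with Control gel. That of suprabasal markers was 3.63 to 6.24% with AKBA gel, against 2.58 to 3.91% with Control gel. In resting skin, stress keratins are found in the outer root sheath and companion layer. Hair follicle genes listed for these layers took 0.201 to 0.291% with AKBA gel, against 0.129 to 0.198% with Control gel. Most of that sum was Krt79, the only gene of the 8 without overlap, and higher (12.5%, against 9.28% of all genes tested). Krt79 is also among the keratins listed above as epidermal, so the full sum is not a measure of these layers alone. The other 7 took 0.0536 to 0.0720% with AKBA gel, against 0.0350 to 0.0615% with Control gel, and overlapped. Fibroblast markers took 1.94 to 2.80% of counts with AKBA gel and 1.78 to 3.66% with Control gel. Skeletal muscle markers took 0.588 to 0.647% with AKBA gel and 0.426 to 0.797% with Control gel. Although labelled epidermis, the libraries thus held RNA of other tissue too. Macrophage markers took 0.150 to 0.177% with AKBA gel and 0.176 to 0.220% with Control gel, with 4 of 8 lower without overlap (50%, against 9.1% of all genes tested). Neutrophil markers took 0.00258 to 0.00393% with AKBA gel and 0.00459 to 0.00481% with Control gel, without overlap. Of these 8 genes 3 passed the low-count filter, and 1 of them, Csf3r, was lower without overlap (33.3%, against 9.1% of all genes tested). Ly6g was at 0 in every library. Endothelial markers took 0.0189 to 0.0332% with AKBA gel and 0.0332 to 0.0395% with Control gel, with 2 of 6 lower without overlap (33.3%, against 9.1% of all genes tested). The summed shares of T cell, Langerhans cell, sebocyte, melanocyte and hair shaft markers overlapped between the groups. By gene, 2 of 5 Langerhans cell markers (40%) and 2 of 8 sebocyte markers (25%) were higher without overlap, against 9.28% of all genes tested. No gene of these 2 lists was lower without overlap, against 9.1% of all genes tested. The part of these cell types in the stress keratin values was not tested.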

How the data were processed

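The authors deposited 1 count and 1 FPKM value per gene and library, for 47729 genes and 6 libraries. Beside them, per the file headers, stand the authors' log2 fold change, p-value and adjusted p-value. The submitters' processing notes name CASAVA 1.8, RSEM, edgeR and the build GRCm38. The sources used here do not give their roles or say whether counts were rounded from estimates. Per the labels' protocols, epidermis was separated with Dispase II.

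Levels and fold changes came from the deposited counts with edgeR 4.0.16 in R 4.3.3: TMM scaling, filterByExpr at its defaults (17023 genes kept), 2-sided quasi-likelihood test and Benjamini-Hochberg adjustment over all genes tested, with a threshold of 0.05. The SE is the size of the log2 fold change over the square root of F. Profiles used log2 CPM with a prior count of 2. FPKM values were used only for ratios and levels between genes. DESeq2 1.42.0 and limma 3.58.1 (voom), other scalings and filters, leaving out libraries and a replicate block were alternatives. The code was tested on simulated data. No library was a repeat of another: within groups, chi-square over its degrees of freedom was 30.8 or more. Sequences are GENCODE transcripts, aligned with Biopython 1.88.

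The members and lists were chosen with earlier results of these data known, so counts over a list are a description. From each list the genes past the threshold, or else up to 4 with the highest mean CPM, were named; for likeness, the 10 highest and 5 lowest r, and the 3 highest for each gene. Exceptions are stated where they occur. The list of every other keratin gene, and the sum of outer sheath markers without Krt79, were added after seeing the data.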

Additional observations from a re-analysis of the deposited data

How the results depend on the processing

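Of the comparisons recomputed, none changed direction for any of the 4 stress keratins; over all alternatives the log2 fold change lay between -3.35 and -1.92 for Krt6a, -3.14 and -1.50 for Krt6b, -2.54 and -1.19 for Krt16, and -0.91 and -0.13 for Krt17. The adjusted p ranged from 0.000497 to 0.972 for Krt6a, from 0.00978 to 0.972 for Krt6b, from 0.00211 to 0.972 for Krt16 and from 0.155 to 0.979 for Krt17; the highest came without both AKBA gel replicate 2 and Control gel replicate 3, an alternative chosen after seeing the data. Scaling to pan-keratinocyte genes called 57 genes lower (0.335% of those tested) and 57 higher. It gave Krt6a at -2.54 (edgeR adjusted p = 0.000497), Krt6b at -2.26 (0.00978) and Krt16 at -1.81 (0.00211). Relative to the median of all genes, 0.19 there, these are -2.74, -2.46 and -1.998. Under TMM the 20 genes scaled to had a median log2 fold change of -0.25. Of them 4 were lower and 1 higher at unadjusted edgeR p under 0.05, beside 7.01% and 6.45% of all genes tested. The prior degrees of freedom of edgeR were 31.2 under that scaling and 3.56 under TMM, and the cause was not tested. That scaling also moved the list medians, to 0.064 for linker and desmosome genes, 0.068 for inducers and regulators, 0.13 for interaction partners and -0.24 for immediate early genes. The genes scaled to include Dsp, Perp, Pkp1, Jup, Pkp3, Dsc3 and Dsg3 of the linker and desmosome list. They also include Trp63 of the inducers and Sfn of the partners, so these lists are not independent of the scaling. DESeq2 called 201 genes lower and 85 higher, with Krt6a at -2.93 (adjusted p = 0.0194). With 1 library left out, edgeR called 0 to 13 genes lower and 0 to 1 higher, and the counts of 13 and 1 came without Control gel replicate 1. Medians then ranged from -1.32 to 2.58 for hair follicle keratins and from -0.55 to 1.42 for every other keratin gene, both highest without Control gel replicate 2, and from -0.65 to -0.23 for immediate early genes, whose median was -0.20 without both libraries named above. Same-numbered libraries did not deviate together (correlations 0.072, 0.019 and -0.33 for numbers 1 to 3), and AKBA gel replicate 1 correlated best with Control gel replicate 3, so the numbers were not taken to pair them. A fit with the replicate block called 0 genes by adjusted p (961 lower and 896 higher at unadjusted p under 0.05) and gave -3.01 for Krt6a, -3.04 for Krt6b, -2.19 for Krt16 and -0.54 for Krt17.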
